A study of Mus musculus with 2 samples.

Results

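The mRNAs of PI3K, AKT and mTOR signalling were examined in mouse macrophages without treatment (NT) and after IL-4. The set held 39 genes, taken by name for their place in the pathway and not by a cut on their level. It was chosen with earlier results of these data known, so its comparison with all genes is no independent test. The series held 15623 genes, and all 39 were listed in the data. The cells were peritoneal macrophages from wild-type C57BL/6 mice of 6–8 weeks, taken 4–5 days after injection of 4% thioglycolate, left to adhere for 4 h and starved in medium with 0.5% FBS. Those steps were shared by both groups, so NT cells were starved and elicited cells too. The IL-4 sample received 20 ng/ml mouse IL-4 for 6 h. Each group was 1 library, and how many mice gave cells to a library was not stated in the sources used here.

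Class I PI3K is a lipid kinase made of a catalytic p110 subunit and a regulatory subunit, and it makes PIP3 at the plasma membrane below growth factor, cytokine, antigen and G protein-coupled receptors. PIP3 brings PDK1 and AKT to the membrane, where AKT is activated, and AKT then phosphorylates the TSC complex, GSK3 and the FoxO transcription factors. With TSC held off, the small GTPase Rheb switches on mTORC1 at the lysosome, to which the Rag GTPases recruit it when amino acids are present, and mTORC1 promotes translation through S6K1 and the 4E-BP proteins. The IL-4 receptor signals through Stat6 and also, by way of Irs2, through PI3K. Most of this signalling runs through lipids and protein phosphorylation, which RNA-seq does not measure.

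RNA-seq gave an expected count for each gene, the estimate by RSEM of the reads that belong to it, and an FPKM, which scales that count for transcript length and library size. The totals were 11035641 expected counts in NT and 11250099 in IL-4. Macrophage markers were present, with all 10 listed and 192318 counts summed in NT against 200063 in IL-4, most of them from Lyz2 and Cd68. Among these markers Csf1r rose from 6236 to 11896 counts (log2 ratio 0.90) and Cd14 fell from 1219 to 591 (-1.07), and the part of this in the members' values was not tested. Summed counts of the B, T and NK, mast, eosinophil, neutrophil, dendritic, and bone marrow progenitor and red cell lists lay between 30.8 and 120.1 in NT and between 30.2 and 121 in IL-4. Mesothelial and fibroblast markers, 6 of 6 listed, summed to 1436 counts in NT and 1090 in IL-4, and the part of those cells in the members' values was not tested. The adipocyte list summed to 19528 and 14907 counts, mostly from Lpl and Fabp4, which macrophages also express, while Adipoq had 0 counts in NT and 139 in IL-4, Plin1, Lep and Cfd were listed in neither library, and the part of such cells was not tested. One label field gave bone marrow as the tissue, whereas another gave peritoneal macrophages.

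The comparison uses the log2 ratio (IL-4 over NT) of counts scaled to the library totals, and its 95% interval covers counting error only. Calling a gene took a log2 ratio 0.75 or more away from 0, together with a p no higher than 0.05 and a Benjamini-Hochberg value no higher than 0.5 in an exact binomial test, which compares 2 libraries and not 2 conditions. Of the 39 members, 0 were called higher, beside 4.07% of all genes tested, and 1 was called lower, beside 6.28%. The called member was Deptor. With a fold change over 1.5 and a Benjamini-Hochberg value no higher than 0.05, which the methods of the study also name, 0 members were called higher, beside 4.84%, and 4 lower, beside 7.74%, namely Deptor, Mtor, Pik3cb and Pik3cd. In bulk RNA, fewer cells of a type and less RNA per cell cannot be told apart. The median log2 ratio was -0.25 over the members and -0.03 over all 15593 genes tested. In 31 of the 39 members the ratio lay below 0, beside 8523 of the 15593 genes. In 31 members it was under 0.5 in size, beside 9463 of the 15593 genes. At least 200 reads were held by 38 of the 39 members but by only 8463 of the 15593 genes. Neither this comparison nor the called shares allow for that difference in counts. The number of members below 0 was 27 with TMM scaling and 33 with a total that left out the 100 most abundant genes. Among the 38 members with at least 200 reads, the interval lay below 0 in 24, where 30.2% of all such genes had it, above 0 in 4, where 28.0% had it, and across 0 in 10.

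**Figure D1:**
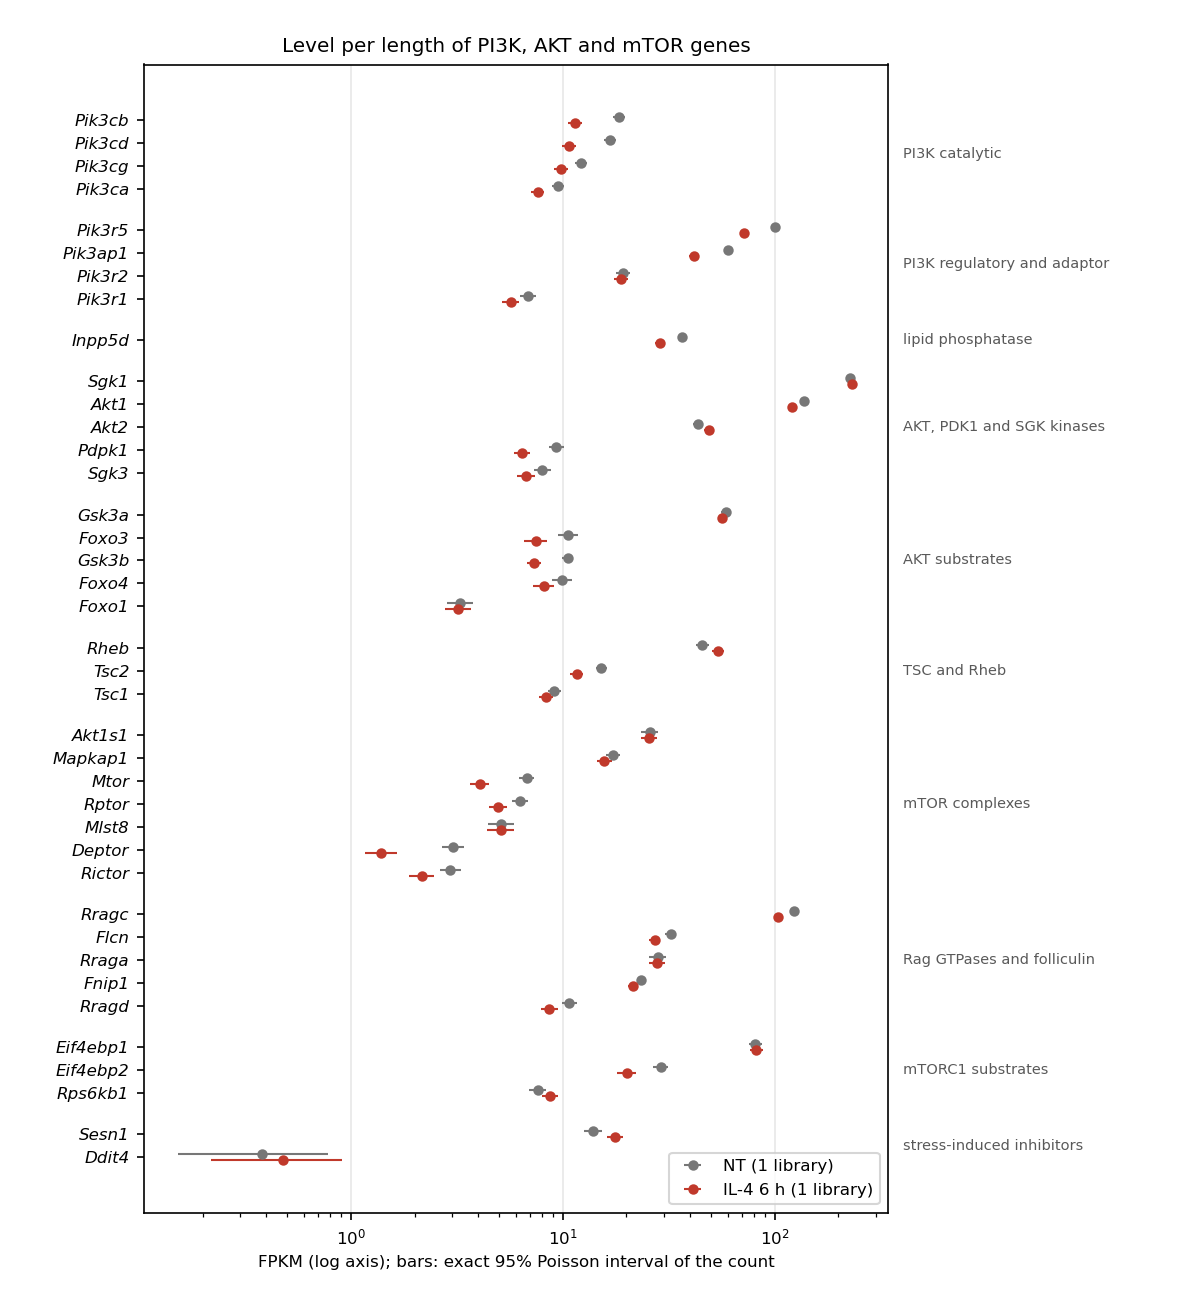
FPKM of the 39 members in the NT library (grey) and the IL-4 library (red) on a log axis, grouped by role, with exact 95% Poisson intervals of the count. Sgk1, Akt1 and Rragc lay above 100 FPKM in both libraries and Ddit4 lay under 1, while the points of the libraries stayed close to each other for most genes.

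Levels per length spanned from 0.38 to 225.99 FPKM in NT, with a median of 15.2, and the median was 11.4 in IL-4. The order of levels was led in both libraries by Sgk1, Akt1 and Rragc, followed by Pik3r5 and Eif4ebp1 in either order. Ddit4, Deptor, Rictor and Foxo1 held the last 4 places in both. Of the 38 pairs of neighbours in this order, 21 differed by no more than counting error in NT, and the same number did in IL-4. Hence the groups of high and low genes were separated by the counts, while most neighbouring ranks were not.

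The 4 catalytic subunits of class I PI3K were all expressed, and none was called, beside 4.07% of all genes called higher and 6.28% lower. Pik3cd, for the p110δ subunit found mainly in leukocytes (chr4:149649168-149702566, GRCm38), had 915 counts and 16.7 FPKM in NT and 598 counts and 10.7 FPKM in IL-4. Its level was lower in the IL-4 library, with a log2 ratio of -0.64 (95% interval -0.79 to -0.49). Pik3cb, for the widely expressed p110β (chr9:99038402-99140235), had 1000.44 counts and 18.5 FPKM in NT and 631.8 counts and 11.4 FPKM in IL-4. The log2 ratio of Pik3cb was -0.69 (-0.84 to -0.54), the third lowest of the members. Pik3cg, whose p110γ acts below G protein-coupled receptors (chr12:32173397-32208677), had 911 counts and 12.2 FPKM in NT and 742 counts and 9.81 FPKM in IL-4. Pik3cg had a log2 ratio of -0.32 (-0.47 to -0.18), the same size as that of Pik3ca, for p110α, which had 9.50 FPKM in NT and 7.61 FPKM in IL-4.

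In FPKM, the catalytic genes lay close together. Pik3cb was 1.95-fold above Pik3ca in NT and 1.5-fold in IL-4, and Pik3cd was 1.36-fold above Pik3cg in NT (95% interval 1.24 to 1.49). In IL-4 Pik3cd and Pik3cg did not differ beyond counting error (1.09-fold, 0.98 to 1.22).

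Among the regulatory and adaptor genes, Pik3r5, whose p101 protein pairs with p110γ, had the highest level per length. It had 4891.97 counts and 100.62 FPKM in NT and 3560.9 counts and 71.8 FPKM in IL-4, and its log2 ratio was -0.49 (-0.55 to -0.42). The FPKM of Pik3r5 was 8.23-fold that of Pik3cg in NT and 7.32-fold in IL-4, and 14.6-fold that of Pik3r1, for p85α, in NT. Pik3r6, the alternative partner of p110γ and not a member, was 17.3-fold below Pik3r5 in NT and 17.5-fold below it in IL-4. Pik3ap1, the adaptor BCAP that links receptors to PI3K, had 60.3 FPKM in NT and 41.6 FPKM in IL-4, a log2 ratio of -0.53. Pik3r1 and Pik3r2, for p85β, had log2 ratios of -0.27 and -0.02. Inpp5d encodes SHIP1, the blood cell phosphatase that removes the 5-phosphate of PIP3 (chr1:87620312-87720510). Its counts were 1989 in NT and 1597 in IL-4, its level 36.5 and 28.6 FPKM, and its log2 ratio -0.34 (-0.44 to -0.25).

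The kinases below PIP3 differed little between the libraries. Akt1 (chr12:112653821-112674884) had 4125 counts and 137 FPKM in NT and 3702 counts and 121 FPKM in IL-4, a log2 ratio of -0.18 (-0.25 to -0.12). Akt2, with 43.6 FPKM in NT and 49.0 FPKM in IL-4, had a ratio on the other side of 0, at 0.16 (0.06 to 0.26). The FPKM of Akt1 was 3.15-fold that of Akt2 in NT and 2.47-fold in IL-4. Sgk1, an AKT-related kinase activated through mTORC2 and PDK1, was the member with the highest level in both libraries, at 225.99 FPKM in NT and 231.64 FPKM in IL-4. The log2 ratio of Sgk1 was 0.04 (-0.01 to 0.09), the narrowest interval among the members, and its relative Sgk3 had -0.25. Pdpk1, for PDK1, had a log2 ratio of -0.32 by counts, but its FPKM went from 9.34 in NT to 6.44 in IL-4, a log2 ratio of -0.53 with 0.1 FPKM added, because RSEM assigned it a length 16% greater in IL-4. For 37 other members the weighted length differed by less than 1%, and for Akt1s1 by 1.23%.

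Of the AKT substrates, 0 of 5 were called, beside 4.07% of all genes called higher and 6.28% lower. Foxo3, a transcription factor that AKT keeps out of the nucleus, had 341 counts in NT and 244 in IL-4, a log2 ratio of -0.51 (-0.75 to -0.27). Foxo1 had 203 counts in each library and Foxo4 had a log2 ratio of -0.29. In FPKM, Foxo3 and Foxo4 did not differ beyond counting error in either library, and Foxo3 was 3.24-fold above Foxo1 in NT. Gsk3a and Gsk3b, the kinases best known for acting on glycogen synthase and β-catenin, had log2 ratios of -0.06 and -0.53. The FPKM of Gsk3a was 5.60-fold that of Gsk3b in NT and 7.74-fold in IL-4. Once the length trend described further on was subtracted, the log2 ratios of Gsk3a and Gsk3b were the same, at -0.12.

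TSC2 is the GTPase-activating subunit that shuts off Rheb, and TSC1 holds it stable. Tsc2 (chr17:24595816-24632676) had 1044 counts and 15.2 FPKM in NT and 819 counts and 11.7 FPKM in IL-4, a log2 ratio of -0.38 (-0.51 to -0.24). Tsc1 had a log2 ratio of -0.13, with an interval across 0. Rheb, the direct activator of mTORC1 (chr5:24802823-24842361), was among the 3 members with the highest ratio. It had 761.92 counts and 45.7 FPKM in NT and 921.37 counts and 54.2 FPKM in IL-4, a log2 ratio of 0.25 (0.11 to 0.39). It was not called.

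Of the 7 genes of the mTOR complexes, Deptor fell and the other 6 were not called, beside 4.07% of all genes called higher and 6.28% lower. Deptor encodes a protein that binds mTOR and inhibits it (chr15:55112317-55259273). It had 290.72 counts and 3.04 FPKM in NT and 135.77 counts and 1.39 FPKM in IL-4, which is 0.459 of the NT level after scaling to totals. The log2 ratio of Deptor was -1.12 (-1.43 to -0.83), with a p of 1.05e-14 in the exact binomial test of the 2 libraries and a Benjamini-Hochberg value of 1.36e-13. Its counts were not whole, which RSEM can give where reads also match another gene, and with an assumed coefficient of variation of 0.4 between animals the call was lost. It was also lost once the length trend described further on was subtracted, at -0.72. Mtor itself, the kinase of both complexes (chr4:148448582-148557685), had 651 counts and 6.76 FPKM in NT and 399 counts and 4.06 FPKM in IL-4. The log2 ratio of Mtor was -0.73 (-0.92 to -0.55), just short of the threshold, and Mtor was called with the total that left out the 100 most abundant genes, at -0.75. Rptor, the mTORC1 scaffold, had -0.34, and Rictor, the mTORC2 scaffold, had -0.45. Mlst8, shared by both complexes, had -0.01, Mapkap1, the mTORC2 subunit mSIN1, had -0.13, and Akt1s1, the mTORC1 inhibitor PRAS40, had 0.01. In FPKM, Mtor and Rptor did not differ beyond counting error in NT (1.08-fold, 0.96 to 1.21), whereas in IL-4 Mtor was at 0.82 of Rptor (0.71 to 0.94). Rheb was 6.76-fold above Mtor per length in NT and 13.3-fold in IL-4.

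None of the 5 genes of the lysosomal arm was called, beside 4.07% of all genes called higher and 6.28% lower. Rragc, for the RagC GTPase, had 123 FPKM in NT and 104 FPKM in IL-4, a log2 ratio of -0.25 (-0.32 to -0.18). Its FPKM was 11.5-fold that of Rragd in NT and 12-fold in IL-4, although RagC and RagD fill the same place in the Rag dimer. Rraga, Rragd, Flcn and Fnip1 had log2 ratios between -0.31 and -0.01. Flcn and Fnip1 encode folliculin and its partner, which stimulate GTP hydrolysis by RagC and RagD.

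The mTORC1 substrates differed among themselves. Eif4ebp1, for the translation repressor 4E-BP1 (chr8:27260327-27275656), had 862 counts and 81.2 FPKM in NT and 889 counts and 82.1 FPKM in IL-4, a log2 ratio of 0.02 (-0.12 to 0.15). Eif4ebp2, for 4E-BP2, had 570 counts in NT and 402 in IL-4, a log2 ratio of -0.53 (-0.72 to -0.34). The FPKM of Eif4ebp1 was 2.80-fold that of Eif4ebp2 in NT and 4.10-fold in IL-4. Rps6kb1, for S6K1, had 445 counts in NT and 523 in IL-4, a log2 ratio of 0.20 (0.02 to 0.39).

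The 2 stress-induced inhibitors of mTORC1 had the highest ratios, and neither was called, beside 4.07% of all genes called higher and 6.28% lower. Sesn1 encodes a sestrin that restrains mTORC1 through GATOR2 (chr10:41810574-41908436). It had 423 counts and 13.9 FPKM in NT and 551 counts and 17.7 FPKM in IL-4, a log2 ratio of 0.35 (0.17 to 0.54). Ddit4, for REDD1, which acts through TSC (chr10:59949675-59951770), had 7 counts and 0.38 FPKM in NT and 9 counts and 0.48 FPKM in IL-4. Its log2 ratio of 0.31 had an interval from -1.26 to 2.0, so no difference was detectable at this depth. Sestrin and REDD1 genes are known targets of FoxO and stress factors. The promoter of Sesn1 is shown because it was the member with the highest ratio and its window held the FoxO core motif TGTTTAC, given in capitals, starting 22 bases after the start site. It is taken from the RefSeq promoter table for GRCm38.p6 at chr10:41810324-41810603, + strand, from 250 bases before to 30 after the start.
Sesn1: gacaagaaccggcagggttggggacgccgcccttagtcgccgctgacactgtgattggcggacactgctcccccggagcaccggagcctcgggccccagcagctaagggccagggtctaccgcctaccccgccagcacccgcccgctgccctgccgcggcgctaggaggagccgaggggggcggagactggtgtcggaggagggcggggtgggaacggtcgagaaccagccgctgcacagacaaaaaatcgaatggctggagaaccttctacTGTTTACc
On either strand, this motif was in 5 of 51 promoter windows of the members, those of Akt1, Mapkap1, Pik3cg and Sesn1, and in 3.65% of all 32851 windows of 300 bases. Unlike Sesn1, the others had log2 ratios below 0, at -0.18 for Akt1, -0.13 for Mapkap1 and -0.32 for Pik3cg. Binding of FoxO was not tested. The other motifs searched on both strands were the Stat6 pair of TTC and GAA with 4 bases between, in 2 of 51 windows (Flcn and Inpp5d) beside 6.95% of all, and the E-box CACGTG, in 5 of 51 (Fnip1, Pik3ap1, Rheb, Rragc and Sgk1) beside 7.15%. Windows were found for 35 of the 39 members.

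**Figure D2:**
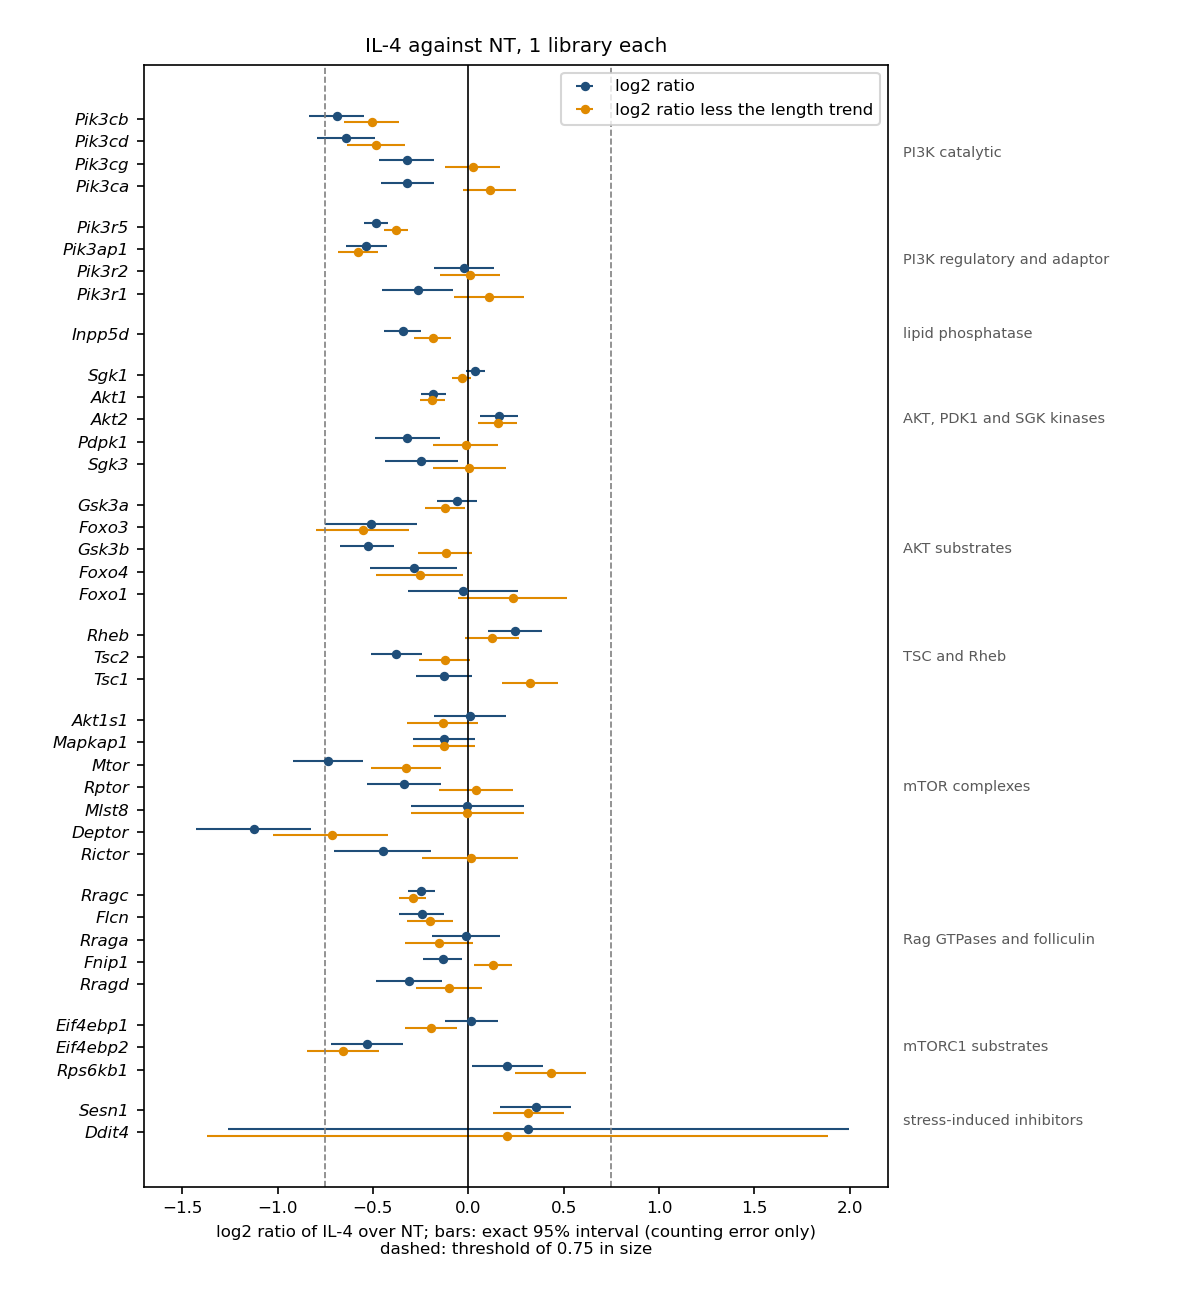
Log2 ratio of IL-4 over NT for each member (blue), and the same less the length trend (orange), grouped by role, with exact 95% intervals for counting error and dashed lines at the threshold of 0.75 in size. Deptor alone lay past the threshold, at -1.12, and at -0.72 it lay inside it once the trend was subtracted.

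Transcript length was taken as a covariate. Across the 8463 genes with at least 200 reads, the ratio was lower for longer transcripts (Spearman's rho -0.45, across genes of the same 2 libraries). The members were long, with a median of 4363 bases against 2707 bases for all genes, and over the 38 members with at least 200 reads rho was -0.49. The 5 of them under 2000 bases had a median log2 ratio of 0.01, with 2 below 0, where all such genes of that length had 0.16. At 6000 bases or more, all 12 members had a ratio below 0 and their median was -0.33, where all such genes of that length had -0.41. Between these, medians were -0.13 for 13 members of 2000 to 4000 bases and -0.33 for 8 members of 4000 to 6000 bases, where all such genes had 0.03 and -0.17.

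A length trend, which is the median ratio of genes of nearly the same length, was then subtracted from each gene. After this, 0 members were called higher, beside 4.00% of all genes, and 0 lower, beside 4.72%. For these calls the size cut used the adjusted ratio, while the p and Benjamini-Hochberg value stayed those of the unadjusted test. The members' median became -0.12 and that of all genes -0.04. Below 0 lay 24 members and above it 15, beside 8484 and 7109 of all genes tested. Over the 38 members with at least 200 reads, rho between the adjusted ratio and length was 0.28, on the other side of 0. Intervals lay below 0 in 15 of the 38 members with at least 200 reads, beside 26.7% of all such genes, above 0 in 5, beside 25.2%, and across 0 in 18.

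The adjustment moved the long genes most. Deptor was no longer called, with an adjusted log2 ratio of -0.72 (-1.02 to -0.42), and 9.45% of the genes that set its trend had a ratio as low or lower. Mtor went to -0.33 (-0.51 to -0.14), with 22.4% of the genes that set its trend as low or lower. Pik3ca, Pik3cg, Rptor and Rictor, which had unadjusted ratios of -0.32 or less, went to 0.11, 0.02, 0.04 and 0.01. Tsc1 went to 0.32 (0.17 to 0.47) and Tsc2 to -0.12 (-0.26 to 0.01). The highest adjusted ratio was that of Rps6kb1, at 0.43 (0.25 to 0.62).

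Several members of short or middle length kept an adjusted interval below 0. Eif4ebp2, of 1786 bases, had an adjusted ratio of -0.66 (-0.84 to -0.47), with 2.99% of the genes that set its trend as low or lower. Pik3ap1 had -0.58 (-0.69 to -0.47) and Foxo3 had -0.55 (-0.80 to -0.31). Pik3cb and Pik3cd had -0.51 (-0.65 to -0.36) and -0.48 (-0.64 to -0.33), so that these catalytic genes lay below Pik3ca and Pik3cg with and without the adjustment. Akt1 stayed at -0.19 (-0.25 to -0.12), Inpp5d went to -0.19 (-0.28 to -0.09), Eif4ebp1 to -0.19 (-0.33 to -0.06), Rheb to 0.12 (-0.02 to 0.26), Sesn1 to 0.31 (0.13 to 0.50) and Ddit4 to 0.20 (-1.37 to 1.89).

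**Figure D3:**
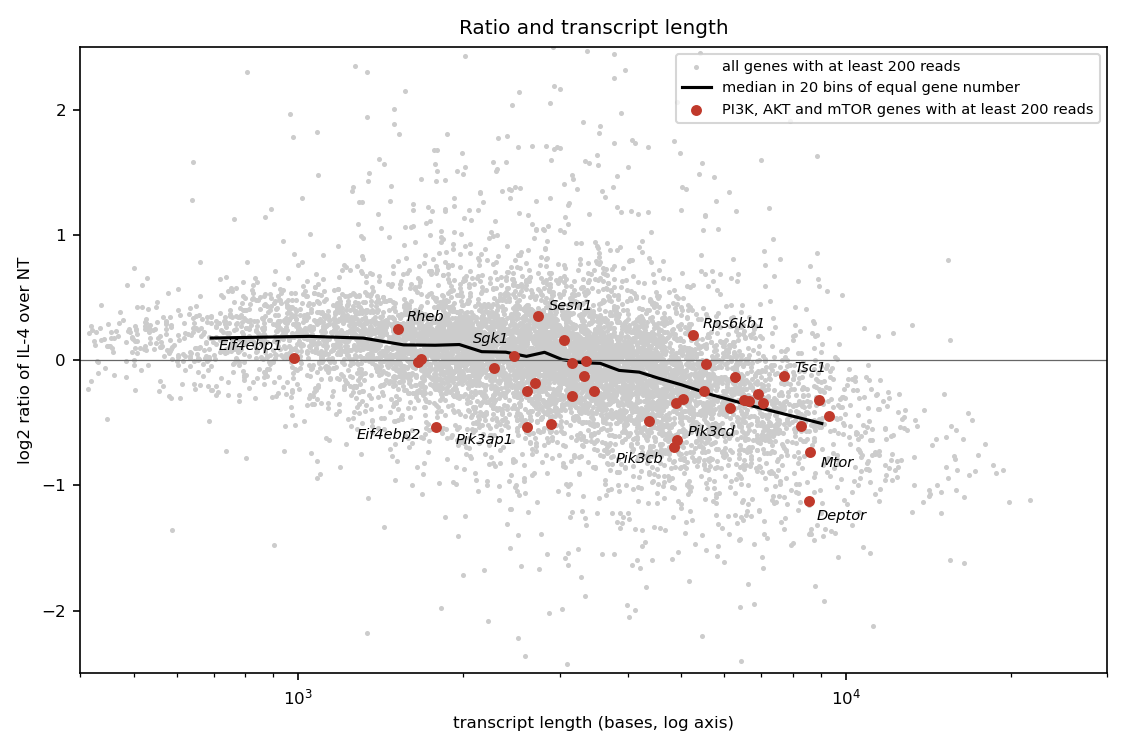
Log2 ratio of IL-4 over NT against transcript length in bases (log axis) for genes with at least 200 reads (grey), the 38 members with at least 200 reads (red) and the median in bins of equal gene number (black line), with the vertical axis limited to 2.5 in size. The line falls with length, and Mtor and Deptor lie at its long end with Deptor furthest below it.

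Other genes of PI3K signalling were read beside the members. Of 25 further PI3K genes listed, 1 was called higher, beside 4.07% of all genes, and 4 lower, beside 6.28%, and the list had a median of -0.37, or -0.10 after the length adjustment. None of the calls named from this or the following lists held with an assumed coefficient of variation of 0.4. Phlpp1, a phosphatase that removes the activating phosphate from the AKT tail, fell from 515 counts in NT to 200 in IL-4, or -1.39 on the log2 scale (-1.64 to -1.15). Irs2, the substrate that couples the IL-4 receptor to PI3K, fell from 152 to 64 counts (log2 ratio -1.27, interval -1.72 to -0.85). Inppl1, for SHIP2, the broadly expressed relative of SHIP1, fell from 1349 to 715 counts (log2 ratio -0.94, interval -1.08 to -0.81). These 3 were also called with the length adjustment, at -1.14, -1.20 and -0.76. Pik3c2a, a class II PI3K, had 487.89 and 292.6 counts and -0.76, and its call was lost under 9 of the alternatives, among them the length adjustment, at -0.32, and TMM scaling, at -0.73. Trib3, a pseudokinase reported to bind AKT, rose from 158 to 370 counts, with a log2 ratio of 1.20 (0.93 to 1.48) and 1.09 after the adjustment.

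Of 41 further mTOR genes listed, 2 were called higher and 4 lower, beside the same 4.07% and 6.28%, with a median of 0.07. Fnip2, the other folliculin partner, fell from 6647.67 counts in NT to 2786.88 in IL-4, with a log2 ratio of -1.28 (-1.35 to -1.22) and -0.89 after the length adjustment. Per length it was 3.57-fold above Fnip1 in NT and 1.61-fold above it in IL-4. Castor2, a relative of the arginine sensor of mTORC1, fell from 183.01 to 92.14 counts, with a log2 ratio of -1.01 (-1.40 to -0.65) and -0.83 after the adjustment, and with 1 added to FPKM it was not called, at -0.72. Tbc1d7, the third subunit of the TSC complex, had 58 and 106 counts and was called at 0.84 (0.37 to 1.33). This call was lost with the length adjustment, at 0.66, and with an assumed coefficient of variation of 0.2. Ddit4l and Sesn3 were called on 14 and 24 counts at most.

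FoxO and Atf4 target genes were examined as readouts below AKT and mTORC1, since AKT restrains FoxO and mTORC1 raises Atf4, although Atf4 is also raised by other stress pathways. Of 22 FoxO target genes listed, 0 were called higher and 2 lower, beside 4.07% and 6.28% of all genes, with a median of -0.18. S1pr1, a receptor for sphingosine 1-phosphate, fell from 169 to 43 counts, with a log2 ratio of -1.99 (-2.52 to -1.51), and Fbxo32, for the ubiquitin ligase atrogin, fell from 2726.68 to 1213.46 counts, with a log2 ratio of -1.20 (-1.30 to -1.10). Both were called with the length adjustment, which added Gadd45a at -0.85. Not all FoxO target genes were lower. Among the 18 with at least 200 reads, the interval lay below 0 in 11, where 30.2% of all such genes had it. It lay above 0 in 3, where 28.0% had it, namely Gabarapl1 (log2 ratio 0.33), Bcl2l11 (0.24) and Txnip (0.15).

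Atf4 target genes had the highest share of calls among these lists. The lists were chosen with earlier results of these data known, so this share is no independent test. Of 19 Atf4 target genes listed, Atf4 itself among them, 11 were called higher and 0 lower, beside 4.07% and 6.28% of all genes. Their median was 0.90, or 0.92 after the length adjustment. In all 14 with at least 200 reads, Atf4 included, the interval lay above 0, where 28.0% of all such genes had it. Genes of serine synthesis were among them. Phgdh, its first enzyme, rose from 426 to 1517 counts, with a log2 ratio of 1.80 (1.65 to 1.96), and Psat1, the next enzyme, from 266 to 650 counts, with a log2 ratio of 1.26. Slc7a5, a transporter of large neutral amino acids, rose from 145 to 461 counts, with a log2 ratio of 1.64, and Asns, for asparagine synthetase, from 270 to 646 counts, with a log2 ratio of 1.23 (1.02 to 1.44). Chac1 and Ddit3 rose with a log2 ratio of 1.15 each, Mthfd2, a mitochondrial folate enzyme, with 1.12 and Atf5 with 1.03. Atf4 had 2880 and 4833 counts and a log2 ratio of 0.72 (0.65 to 0.79), short of the threshold, and was called with TMM scaling at 0.76. With the length adjustment Atf4 lay further from the threshold, at 0.60 (0.53 to 0.66), and was not called. With an assumed coefficient of variation of 0.2 the list kept 8 calls, and with 0.4 it had 0.

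The promoters of Trib3 and Asns are shown because both genes rose and hold a match to the C/EBP-ATF response element, the site to which Atf4 binds. The letters searched were TGATGNAA on both strands, and the match is in capitals. In Trib3 it is on the reverse strand and starts 14 bases after the start site, and in Asns it starts 23 bases before it. Both come from the RefSeq promoter table for GRCm38.p6, from 250 bases before to 30 after the start, Trib3 at chr2:152344031-152344310 and Asns at chr6:7693180-7693459, − strand.
Trib3: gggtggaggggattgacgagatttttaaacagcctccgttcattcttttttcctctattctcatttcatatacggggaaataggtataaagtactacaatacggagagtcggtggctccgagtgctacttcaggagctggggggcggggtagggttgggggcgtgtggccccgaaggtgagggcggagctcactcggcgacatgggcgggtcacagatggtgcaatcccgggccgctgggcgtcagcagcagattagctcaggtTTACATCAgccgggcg
Asns: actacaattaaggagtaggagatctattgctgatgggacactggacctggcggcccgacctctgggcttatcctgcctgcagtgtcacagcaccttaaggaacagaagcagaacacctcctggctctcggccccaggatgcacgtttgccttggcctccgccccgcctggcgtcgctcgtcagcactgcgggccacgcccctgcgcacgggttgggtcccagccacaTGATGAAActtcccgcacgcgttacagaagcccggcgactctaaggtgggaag
These letters were in 5 of 21 windows of the Atf4 target list, or 23.8%, and in 3.97% of all windows. The 5 were those of Asns and Chac1, which were called, and of Slc7a11, Pycr1 and Vldlr, which were not. Pycr1 had 14 reads in all and Vldlr had 5. Because the list was made of Atf4 targets, its share follows largely from that choice and says nothing about IL-4. Among the members the letters were in 2 of 51 windows, those of Akt2 and Pik3cd. A match is a description of the sequence and was not tested for binding here.

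**Figure D4:**
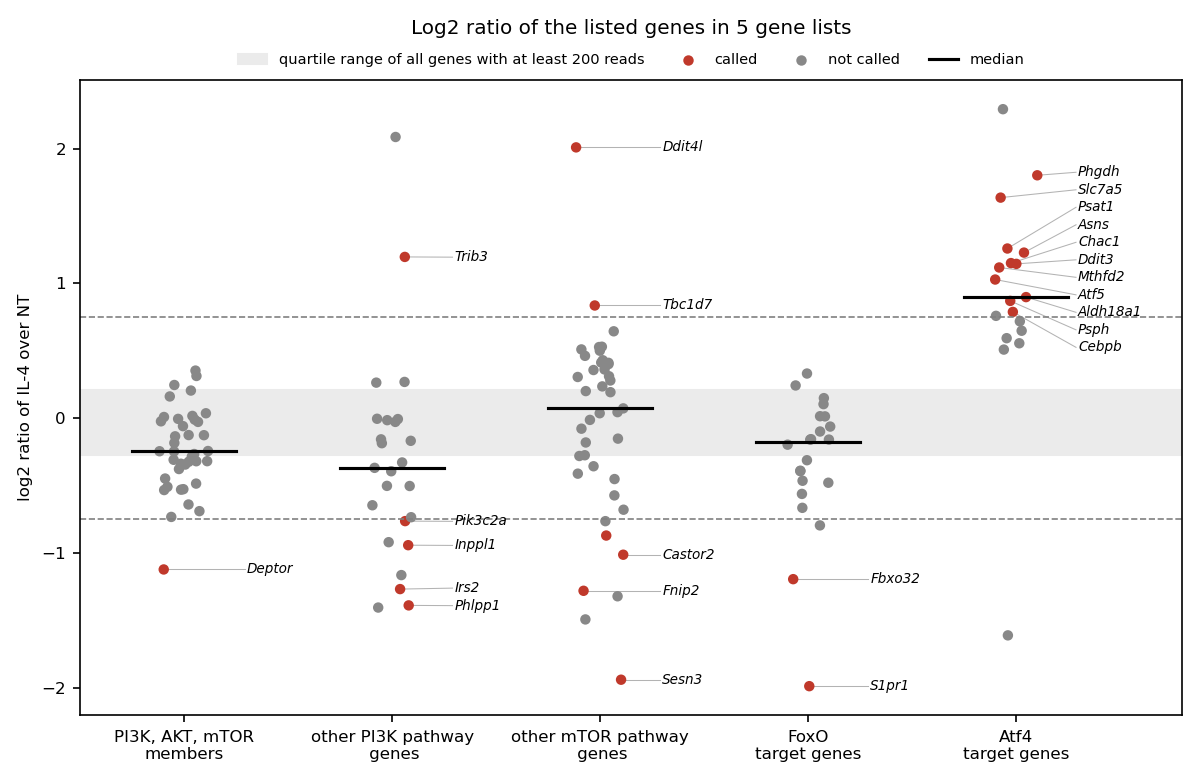
Log2 ratio of IL-4 over NT for the listed genes of 5 lists, with called genes in red, nearly all of them named, uncalled genes in grey, the median as a black line, the range between the quartiles of all genes with at least 200 reads as a band, and dashed lines at 0.75 in size. The members cluster near -0.25 with Deptor apart, and the Atf4 target genes lie around a median of 0.90.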

How the data were processed

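Total RNA of 1 NT and 1 IL-4 sample was sequenced on an Illumina HiSeq at BGI. Per the submitters' processing notes, reads were handled with Bowtie and RSEM on GRCm38/mm10, and versions were not given in the sources used here. The deposited expected counts are estimates by RSEM that need not be whole (77.6% whole in NT and 77.8% in IL-4). The deposited FPKM values were scaled by the authors for length and fragments assigned. The lowest listed FPKM was 0.01, and a gene absent from a table was set to 0.

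Groups came from sample titles. The members and gene lists were chosen with earlier results of these data known. NCBI gene numbers were matched to symbols and coordinates through a RefSeq table for GRCm38 (15587 of 15623). Samtor was not matched by symbol, and Sgk2 and Pdk4 were listed in neither library. Ratios used counts scaled to totals with 0.5 count added. Expected counts were rounded to whole numbers, 30 genes that rounded to 0 in both were left out, and the other 15593 went into a two-sided exact binomial test of the IL-4 reads against the IL-4 share of the totals, with Benjamini-Hochberg adjustment over all of them. The call rule is that in the results of the study, and its methods give another, a fold change over 1.5 and an adjusted value of 0.05, which was an alternative. The 95% intervals of a ratio follow Clopper and Pearson (exact), and a count of 3 in a library was 0.272 CPM in NT and 0.267 CPM in IL-4. Intervals of FPKM ratios are approximate and cover counting error. PCR copies are not independent molecules, so all intervals cover counting error only. The length trend of a gene was taken from its closest neighbours in length that had at least 200 reads, without the gene itself.

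All values were given for called members, the 3 highest and 3 lowest by ratio, and 8 central members (Akt1, Mtor, Rheb, Inpp5d, Pik3cd, Pik3cg, Tsc2 and Eif4ebp1). Of other lists, called genes with at least 50 counts were named, at most 8 a list, with Irs2. A few genes that this rule takes in are not reported here. Atf4 and the low-count calls Ddit4l and Sesn3, with Gadd45a, Pik3r6, Adipoq, Csf1r, Cd14, Lyz2 and Cd68, were named after their values were seen. The same holds for Gabarapl1, Bcl2l11 and Txnip. Alternatives were other scalings, FPKM, assumed variation between animals, other thresholds and filters, and length trends. With FPKM and with length trends, only the size cut used the altered ratio, and the p and Benjamini-Hochberg values stayed those of the unadjusted count test. The scripts were tested on simulated data. Alternatives used R 4.3.3 with edgeR 4.0.16 and DESeq2 1.42.0, and the rest Python 3.11.15 with matplotlib 3.10.9, pandas 2.3.3, scipy 1.17.1 and numpy 2.4.6.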

Additional observations from a re-analysis of the deposited data

How the results depend on the processing

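No paired analysis was possible because NT and IL-4 have 1 library each. No spread between animals could be estimated. No member was called higher under any of the 14 alternatives. Deptor was the 1 member called lower with TMM and median-of-ratios scaling, FPKM with 0.1 or 1 added, assumed coefficients of variation of 0.1 and 0.2, a log2 ratio of at least 1, and a filter of 50 counts. The number called lower was 2 with a total that left out the 100 most abundant genes (Mtor and Deptor), 4 with a fold change over 1.5 (Pik3cb, Pik3cd, Mtor and Deptor), and 0 with an assumed coefficient of variation of 0.4, with the length trend over fewer or more neighbours subtracted (Deptor at -0.72 and -0.68), and with whole counts alone, which kept 28 members and left Deptor out. The members' median log2 ratio ranged from -0.27 to -0.09 over the alternatives, beside -0.25. In the 7 alternatives that alter the ratio itself, moves beyond the counting interval were counted for members that stayed uncalled. The length trends moved 20 of these members each, FPKM with 0.1 added moved 1 (Pdpk1), and the others moved 0. Deptor, which was called and so not in this count, left its interval of -1.43 to -0.83 with both length trends. It also left it with 1 added to FPKM, at -0.76, where it was still called. The other 7 alternatives change the test, the threshold or the genes kept and leave a ratio as it was. The scalings moved the median of all genes by at most 0.037 on the log2 scale.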
